A study of Mus musculus with 4 samples.

Results

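Club cells are the secretory cells of the conducting airways, and 10 genes that they and other airway secretory cells express were followed through RNA sequencing of CD31-selected mouse lung endothelial cells (ECs). The genes were Scgb1a1, Scgb3a1, Scgb3a2, Bpifa1, Bpifb1, Muc5b, Cyp2f2, Reg3g, Cbr2 and Foxa1. They were chosen by symbol, all 10 were found among the 24063 gene symbols in the tables, and of each the transcript with the highest sum of counts in the 4 libraries was taken. The question was how much RNA of airway cells the CD31-selected fraction carried, and whether its level differed between post-PNX and sham-operated mice.
Both groups were C57BL6 (C57BL6J) mice, 8 weeks old, without a transgene or drug given in the labels. The post-PNX group had undergone unilateral pneumonectomy (PNX), the removal of the left lung, 7 days earlier, and the control group had a sham operation in which the chest was opened without PNX. ECs were enriched from digested lungs with a CD31 antibody and magnetic beads over a pair of successive columns. Each group had 2 libraries, each pooled from 2 mice, so p-values measured the spread between pools. The ECs of the post-PNX group came from the remaining lobes, and which lobes were taken from sham-operated mice is not given in the sources used here. The sources also do not say whether RNA was taken before or after the culture step that the methods describe.

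Club cells line the bronchioles, secrete small proteins called secretoglobins together with antimicrobial proteins and mucins, and hold cytochrome P450 enzymes that convert inhaled compounds. They also act as progenitors that renew themselves and give rise to ciliated cells. None of the secreted products below is a product for which ECs are known. In a bulk library a change in their RNA can come, for example, from fewer airway cells or from less RNA per cell. Such sources cannot be told apart here.

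The counts on genes, with 1 transcript per gene, lay between 41367438 and 50952879 per library. Levels are given below as normalized counts, which are counts scaled by TMM (trimmed mean of M values) factors to a library of mean size. Pecam1, which encodes CD31, stood at 90946 ± 240 (SD, n = 2) normalized counts in sham and at 90400 ± 294 (SD, n = 2) in post-PNX libraries. All 12 endothelial markers in the list were found and tested, with summed levels of 557106 and 562885 normalized counts in sham and 461779 and 463729 in post-PNX libraries. The labels call the mice male, but the 44 genes of chromosome Y were at 0 counts throughout, and Xist, a gene picked once its level was known, lay between 31872 and 33792 normalized counts. This went against the label in all 4 libraries of both groups alike.

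The loci lie on 7 chromosomes of mm10 (GRCm38). Scgb1a1, which encodes the club cell secretory protein, lies on the minus strand at chr19:9083642-9087956. Scgb3a1 lies on the plus strand at chr11:49663595-49665118. Bpifa1 and Bpifb1 are neighbours on the plus strand of chromosome 2, at chr2:154142880-154149217 and chr2:154190818-154220343. Muc5b, at chr7:141839059-141873089, and Cyp2f2, at chr7:27119955-27133660, share chromosome 7 and the plus strand. Reg3g (chr6:78466269-78468874), Cbr2 (chr11:120729485-120732025) and Foxa1 (chr12:57540628-57548029) are on the minus strand. Cyp2f2 overlaps the antisense gene Gm15883, and the counting of strands is not given in the sources used here. Foxa1 shares a stretch of 187 bases at 90.4% identity with Foxa2, and no other member had a transcript of another gene at 90% identity over 75 bases.

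RefSeq promoter windows of GRCm38.p6, from 250 bases before to 50 bases after a start site, were held for 7 of the 10 genes. Scgb1a1, Scgb3a2 and Muc5b had no entry. Letters known from regulators of lung epithelium were searched on both strands. The FOXA core TGTTTAC was found in the window of Foxa1 and in 3.65% of all 32851 windows, and the NKX2-1 core CAAGTG in those of Cyp2f2 and Scgb3a1 and in 13.6% of all. The TATA box TATAAA was found in the windows of Bpifa1 and Reg3g and in 13.6% of all, and the C/EBP core, 8 letters long and written TTGCNNAA, in none of the members' windows and in 10.8% of all. These are matches of letters only. The 250 bases before the start are shown for the genes with a match, among them Bpifa1, the gene that fell most, with the matched letters in capitals whichever strand they read on. No matched letters overlapped.
Bpifa1, plus strand, chr2:154142630-154142879: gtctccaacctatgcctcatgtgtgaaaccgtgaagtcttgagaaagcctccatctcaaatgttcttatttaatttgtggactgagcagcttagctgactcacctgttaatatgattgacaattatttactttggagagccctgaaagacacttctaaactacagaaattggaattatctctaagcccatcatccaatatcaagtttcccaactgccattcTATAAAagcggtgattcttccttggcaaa
Reg3g, minus strand, chr6:78468875-78469124: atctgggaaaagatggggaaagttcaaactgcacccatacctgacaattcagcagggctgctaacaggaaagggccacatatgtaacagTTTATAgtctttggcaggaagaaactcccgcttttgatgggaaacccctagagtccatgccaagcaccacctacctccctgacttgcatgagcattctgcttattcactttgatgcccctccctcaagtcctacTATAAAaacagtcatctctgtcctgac
Cyp2f2, plus strand, chr7:27119705-27119954: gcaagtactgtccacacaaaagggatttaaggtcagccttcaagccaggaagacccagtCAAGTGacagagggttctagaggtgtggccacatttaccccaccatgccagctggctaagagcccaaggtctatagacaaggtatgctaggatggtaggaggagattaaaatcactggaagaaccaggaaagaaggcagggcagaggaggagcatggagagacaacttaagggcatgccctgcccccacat
Scgb3a1, plus strand, chr11:49663345-49663594: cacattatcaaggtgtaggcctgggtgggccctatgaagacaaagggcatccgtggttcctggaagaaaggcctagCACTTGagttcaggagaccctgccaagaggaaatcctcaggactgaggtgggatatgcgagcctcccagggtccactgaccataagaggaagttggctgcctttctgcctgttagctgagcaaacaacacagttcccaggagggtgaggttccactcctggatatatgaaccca
Foxa1, minus strand, chr12:57546112-57546361: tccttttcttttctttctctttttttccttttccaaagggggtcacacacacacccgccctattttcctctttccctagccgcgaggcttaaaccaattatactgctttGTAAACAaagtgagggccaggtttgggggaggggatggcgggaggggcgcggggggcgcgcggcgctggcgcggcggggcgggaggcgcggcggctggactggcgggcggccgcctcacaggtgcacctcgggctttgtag
The TATA box of Bpifa1 began 29 bases and the nearer one of Reg3g 27 bases before the start. The Foxa1 window lies before a start site inside the annotated locus. The NKX2-1 cores of Cyp2f2 and Scgb3a1 began 191 and 174 bases before the start.

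All 10 airway secretory genes were lower in post-PNX libraries than in sham libraries. In each of them both post-PNX libraries lay below both sham libraries, as they did in 40.5% of the 16208 genes tested. All 10 had an adjusted p below 0.01 (quasi-likelihood test of edgeR, Benjamini-Hochberg adjusted, the largest p being 2.1e-15), against 27.8% of all genes tested that were lower by this rule. None was higher, against 29.3% of all genes tested by this rule and 5.9% by the rule with the fold threshold. With the added threshold of a log2 fold change below -1, which is a fall of more than 2-fold, 7 of the 10 passed, against 1.66% of all genes tested. The median log2 fold change of the 10 genes was -1.01, in a range from -2.12 to -0.75, and the median over all genes tested was 0.00. The members had been chosen with results of these libraries known, so these counts describe the genes and are not independent evidence of their direction.

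The secretoglobins are small secreted proteins of the airway lining. Scgb1a1, the classic marker of club cells, had 145078 and 146435 normalized counts in sham, and 72062 and 69261 in post-PNX libraries. Its log2 change was -1.04 ± 0.016 (SE, edgeR adjusted p = 2.5e-53), which left 48.5% of the sham level. On the scale of TPM, which allows for transcript length, Scgb1a1 ranked first of the 24063 genes in both sham libraries, with 10754 and 10842 TPM. It ranked second in both post-PNX libraries, with 5217 and 5012 TPM. By counts, which favour long transcripts over this one of 468 bases, it was in place 5 in both sham libraries and in places 39 and 43 in the post-PNX libraries. It held 0.314% (95% Wilson interval 0.313% to 0.316%) of the counts on genes in the first sham library, an interval of counting error only.
Scgb3a1, which encodes a secretoglobin of the larger airways, had 1634 and 1613 normalized counts in sham and 770 and 848 in post-PNX libraries. Its log2 change was -1.01 ± 0.049 (SE, edgeR adjusted p = 3.3e-27). Scgb3a2, a secretoglobin that marks airway cells from early development on, had 4539 and 4492 normalized counts in sham and 2669 and 2692 in post-PNX libraries. At -0.75 ± 0.030 (SE, edgeR adjusted p = 1.8e-31) it had the smallest fall of the 10 genes and kept 59.3% of its sham level. Each of the latter 2 genes has 2 transcripts in the tables with nearly equal counts. Scgb3a2 is on chromosome 18, plus strand, from base 43764301 to 43767399. The groups did not overlap in any of the secretoglobins, and the libraries within a group lay far closer to each other than to the other group.

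The BPI-fold proteins Bpifa1 and Bpifb1 are secreted onto the airway surface, where Bpifa1 acts in host defence and on the surface tension of airway fluid. Bpifa1 had 4066 and 3913 normalized counts in the sham libraries against 953 and 884 in the post-PNX libraries. With a log2 change of -2.12 ± 0.039 (SE, edgeR adjusted p = 3.9e-49) it had the largest fall of the 10 genes, to 23.1% of the sham level. Its neighbour Bpifb1 had 1122 and 1164 normalized counts in sham and 575 and 579 in post-PNX libraries, a log2 change of -0.98 ± 0.056 (SE, edgeR adjusted p = 6.9e-24). The 2 neighbouring genes thus fell by unlike factors, of 4.34 and 1.98.

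Muc5b, the gel-forming mucin that carries mucus clearance in the airways, had 767 and 784 normalized counts in sham and 424 and 449 in post-PNX libraries. Its log2 change was -0.83 ± 0.065 (SE, edgeR adjusted p = 1.8e-17). Muc5b has the longest transcript of the 10, with 14963 bases, and the lowest level per length, with 1.80 ± 0.026 (SD, n = 2) TPM in sham and 0.989 ± 0.039 (SD, n = 2) TPM in post-PNX libraries. Reg3g, which encodes an antibacterial lectin, had the fewest counts, 447 and 412 in sham, and 214 and 170 in post-PNX libraries. Its log2 change was -1.04 ± 0.092 (SE, edgeR adjusted p = 2.1e-15), the least precise of the 10. The 95% interval of this change ran from -1.22 to -0.86, so that a fall of exactly 2-fold lay inside it.

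Cyp2f2, the P450 enzyme that makes club cells sensitive to naphthalene, had 19061 and 18614 normalized counts in sham and 7993 and 7866 in post-PNX libraries. At -1.25 ± 0.021 (SE, edgeR adjusted p = 2.9e-51) it had the second largest fall, to 42.1% of the sham level. Cbr2, a lung carbonyl reductase of airway cells, had 41224 and 41148 normalized counts in sham and 20441 and 20585 in post-PNX libraries. Its log2 change was -1.01 ± 0.018 (SE, edgeR adjusted p = 3.2e-50), with a 95% interval from -1.04 to -0.97. By TPM, Cbr2 was next to Scgb1a1 among the 10 genes, with 1399 ± 2.95 (SD, n = 2) in sham libraries, and Cyp2f2 followed with 359 ± 6.32 (SD, n = 2).

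Foxa1, the forkhead transcription factor that opens chromatin in endoderm-derived epithelium, is the only member that is not a secreted protein or an enzyme. It had 637 and 590 normalized counts in sham and 303 in each of the post-PNX libraries. The log2 change was -1.02 ± 0.076 (SE, edgeR adjusted p = 1.8e-18). Its level per length was low, with 6.67 ± 0.364 (SD, n = 2) TPM in sham and 3.22 ± 0.0021 (SD, n = 2) TPM in post-PNX libraries. Of the secreted products only Muc5b had a lower TPM in these libraries.

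**Figure D1:**
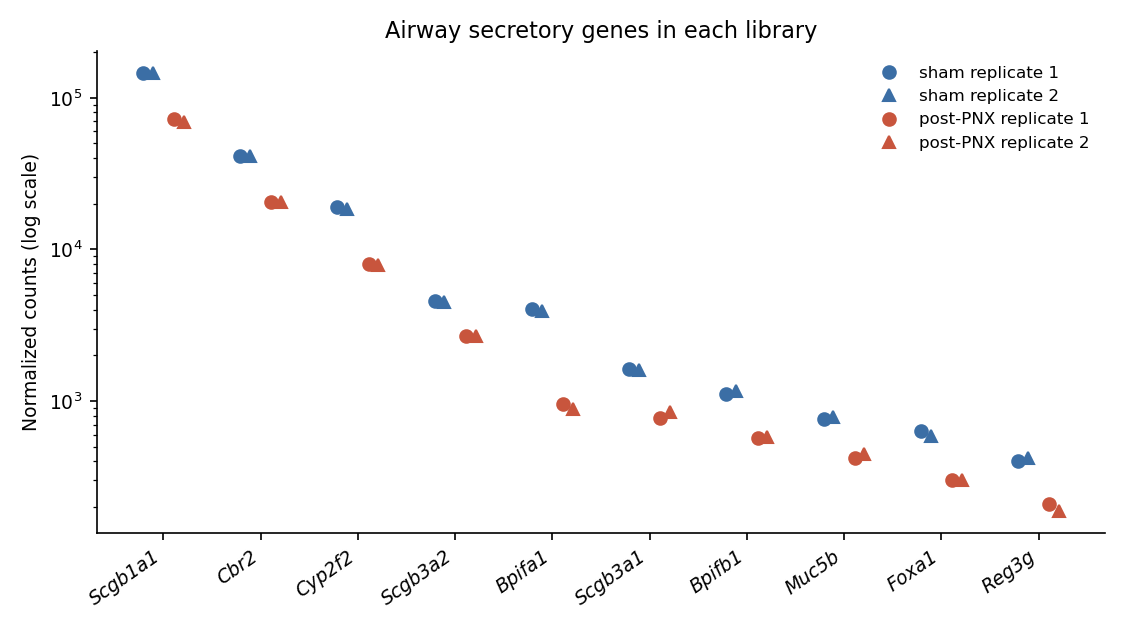
Normalized counts (log scale, vertical axis) of the 10 airway secretory genes (horizontal axis, in order of their sham level) in the 2 sham and the 2 post-PNX libraries, each point being 1 library. For every gene both post-PNX points lie below both sham points, from Scgb1a1 (145078 and 146435 against 72062 and 69261) down to Reg3g (405 and 420 against 210 and 189).

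In the sham libraries the 10 genes together held 0.473% (95% Wilson interval 0.472% to 0.475%) and 0.475% (0.473% to 0.477%) of the counts on genes. In the post-PNX libraries the shares were 0.231% (0.230% to 0.233%) and 0.225% (0.223% to 0.226%). How much of this RNA came from airway secretory cells was not tested. Scgb1a1 carried between 66.4% and 67.7% of the summed normalized counts in the 4 libraries, and Scgb1a1, Cbr2 and Cyp2f2 together between 94.0% and 94.5%.

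Most of the 10 genes lay close to the fold threshold, which makes the number that passed it a fragile count. The log2 fold changes of 6 genes were within 0.05 of -1. Just past it were Cbr2 (-1.01), Scgb3a1 (-1.01), Foxa1 (-1.02), Reg3g (-1.04) and Scgb1a1 (-1.04), and just short of it was Bpifb1 (-0.98), followed by Muc5b (-0.83) and Scgb3a2 (-0.75). When the test itself asked whether the fall exceeded 2-fold (edgeR's glmTreat), only Bpifa1 and Cyp2f2 passed an adjusted p of 0.01, 2 of 10 against 0.241% of all genes tested. Between 5 and 7 genes passed both thresholds when the fit was repeated without each library, the fewest without the first post-PNX library, and all 10 kept an edgeR adjusted p below 0.01 in each of these fits.
Scaling the libraries to the 12 endothelial markers in place of TMM raised the median log2 fold change of all genes tested to 0.28. The median of the 10 genes was then -0.74. All 10 remained lower at an edgeR adjusted p below 0.01, against 8.13% of all genes tested under this scaling. Only Bpifa1, at -1.84, passed the fold threshold as well, 1 of 10 against 0.487% of all genes tested.

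**Figure D2:**
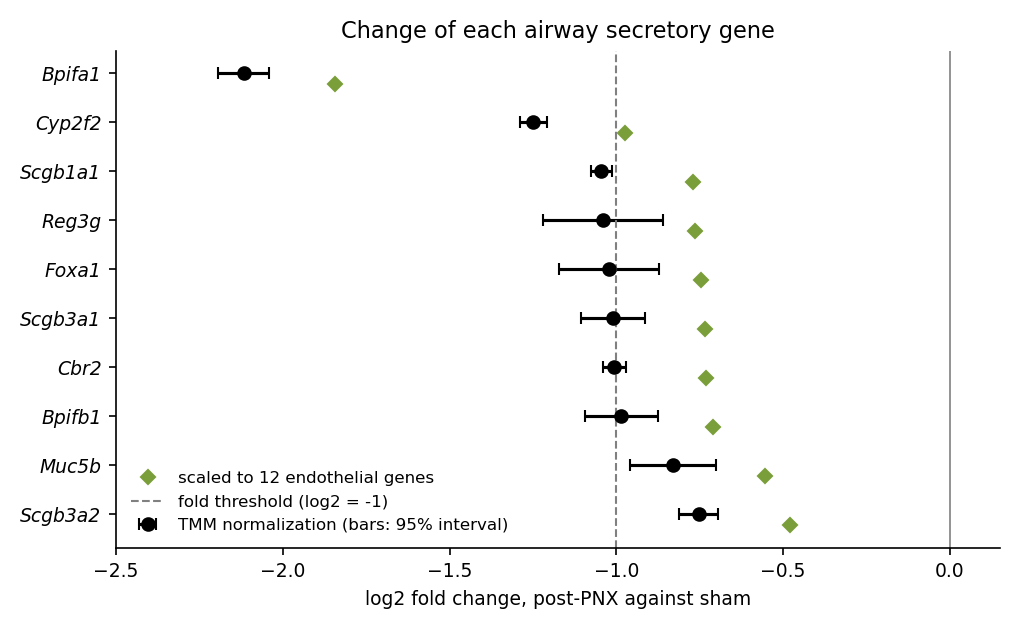
Log2 fold change of each gene, post-PNX against sham (horizontal axis), with TMM normalization (black points, bars for the 95% interval) and with libraries scaled to 12 endothelial genes (green diamonds). The dashed line is the fold threshold at -1, where Scgb1a1, Reg3g, Foxa1, Scgb3a1, Cbr2 and Bpifb1 crowd, while Bpifa1 (-2.12) and Cyp2f2 (-1.25) lie past it and Muc5b (-0.83) and Scgb3a2 (-0.75) short of it.

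To see whether the genes fell by like factors, each was set against Scgb1a1 in the same library, which removes any scaling between libraries. Of the 9 ratios, 4 overlapped between the groups. Cbr2 had 28.4 and 28.1 counts per 100 of Scgb1a1 in sham and 28.4 and 29.7 in post-PNX libraries. Reg3g had 0.279 and 0.287 against 0.292 and 0.273, and the ratios of Scgb3a1 and Foxa1 overlapped in the same way.
The other 5 ratios did not overlap, 2 of them lower and 3 higher in the post-PNX libraries. Of all other genes tested, 0.747% had a ratio to Scgb1a1 that was lower without overlap and 96.3% one that was higher, since most genes did not fall as Scgb1a1 did. Bpifa1 fell from 2.80 and 2.67 counts per 100 of Scgb1a1 to 1.32 and 1.28, and Cyp2f2 from 13.1 and 12.7 to 11.1 and 11.4. Scgb3a2 went from 3.13 and 3.07 up to 3.70 and 3.89, Muc5b from 0.529 and 0.535 up to 0.589 and 0.648, and Bpifb1 from 0.773 and 0.795 up to 0.798 and 0.837. On the log2 scale the ratio of Bpifa1 changed by -1.08, those of Scgb3a2, Muc5b and Cyp2f2 by 0.29, 0.22 and -0.20, and that of Bpifb1 by 0.06. With 2 libraries per group the exact permutation test over libraries (two-sided) gave p = 0.333 for each of these 5, the smallest it can give, or 0.6 after Benjamini-Hochberg adjustment over the 9 ratios.

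**Figure D3:**
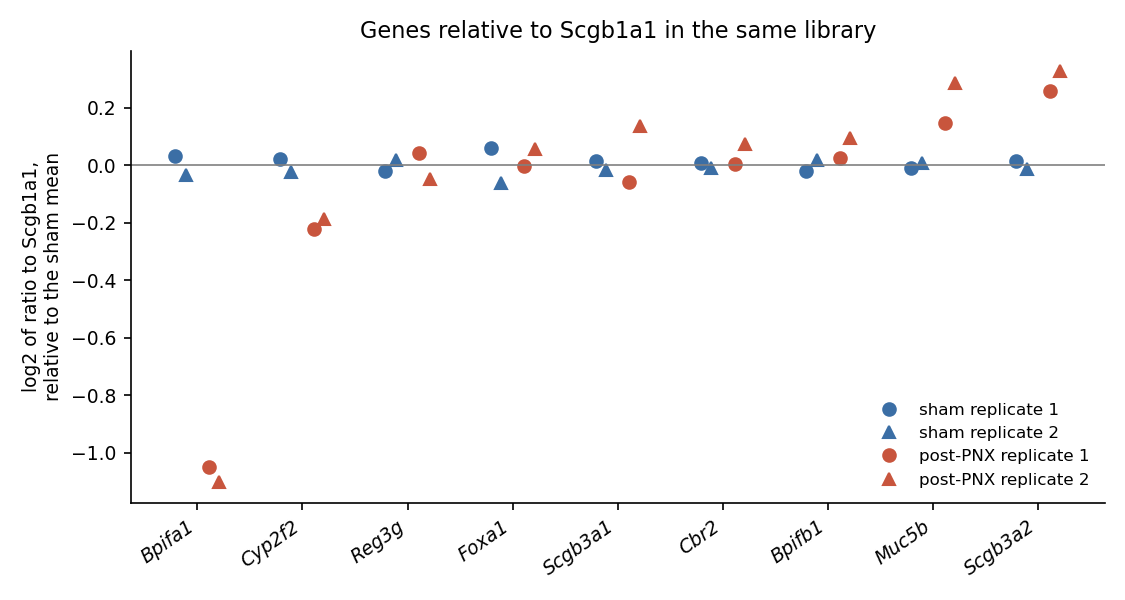
Ratio of each gene to Scgb1a1 in the same library, as log2 relative to the mean of the sham libraries (vertical axis), for 9 genes (horizontal axis) in the 4 libraries. Bpifa1 stands apart near -1.08 in the post-PNX libraries and Cyp2f2 lies below 0, Scgb3a2 and Muc5b lie above 0, and Reg3g, Foxa1, Scgb3a1 and Cbr2 overlap between groups.

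Other genes of airway secretory cells, taken from lists that do not hold the 10, were lower in the main but with more spread. Of 10 club cell markers outside the 10 genes, 9 were tested and 7 were lower at an edgeR adjusted p below 0.01, with a median log2 fold change of -0.70. Sec14l3, which encodes a lipid-binding protein, went from 33907 and 34019 normalized counts in sham to 19565 and 19816 in post-PNX libraries (-0.79). Its sham level was far above the sham means of Hp (7482), Gabrp (635) and Cckar (427). Which cells made the Sec14l3 RNA was not tested. Cckar (-0.82) and Gabrp (-0.77) fell in the same test, while haptoglobin, Hp, was at -0.07 (edgeR adjusted p = 0.0103), short of the threshold and at 0.21 under the endothelial scaling. Cldn10, named after its values were seen, was at 0.15 (edgeR adjusted p = 0.23) and at 0.42 under that scaling. The endothelial scaling left 6 of the 9 lower and 2 higher at an edgeR adjusted p below 0.01.
Of 24 enzymes of foreign compound metabolism, many of them made by other lung cells too, all were tested. In post-PNX libraries 20 were lower and none higher at an edgeR adjusted p below 0.01, 9 of them past the fold threshold, with a median of -0.57. Those with the most counts in sham libraries were Fmo1 (39802 against 18627 normalized counts, -1.10), Cyp4b1 (39694 against 18766, -1.08) and Fmo2 (36143 against 26421, -0.45). Cyp2a5, a P450 of airway epithelium, had the largest fall, from 726 and 668 to 233 and 250 normalized counts (-1.54). Under the endothelial scaling 16 of the 24 were lower and 2 higher at this threshold.

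The secreted and surface glycoproteins outside the 10 genes went both ways. Of 16 listed, 15 were in the tables and 10 were tested, and 6 of these were lower and 2 higher at an edgeR adjusted p below 0.01. Wfdc2, an airway protease-inhibitor family protein, fell from 6345 to 4329 normalized counts (-0.55), and Muc4, a membrane mucin, from 562 to 387 (-0.54). Muc1 was at -0.21, and at 0.07 under the endothelial scaling. Clca1 rose from 443 and 396 to 650 and 622 normalized counts (log2 change 0.60, edgeR adjusted p = 4.5e-11). Which gene this symbol named in the annotation used was not checked, so it is not read as a goblet cell product. Muc5ac, the mucin of goblet cells, named after its values were seen, rose from 16 and 13 counts to 31 and 29 (log2 change 1.16 ± 0.33 SE, edgeR adjusted p = 0.0015). Both were higher by this test under the endothelial scaling as well. Other genes of mucus-producing cells in these lists, also named after their values were seen, did not move with Muc5ac. Tff2, a trefoil peptide, fell from 71 and 74 counts to 41 and 26 (log2 change -0.99, edgeR adjusted p = 8.7e-05). Spdef, a factor of goblet cell differentiation, was at -0.75 (edgeR adjusted p = 0.047) and Agr2 at 0.27 (edgeR adjusted p = 0.50), neither passing the threshold. Bpifb9a, Bpifb9b and Reg3b had 0 counts in every library, which here allows at most 3 counts per library or 0.0725 CPM.
Of 11 airway transcription factors, 9 were tested, and 6 were lower and none higher at an edgeR adjusted p below 0.01, none of them past the fold threshold. The median was -0.55, smaller in size than the fall of Foxa1. Nkx2-1, the lineage factor of lung epithelium, fell from 1830 to 1249 normalized counts (-0.55), and Grhl2 (-0.71) and Ehf (-0.67) fell too. Cebpa was at -0.20, and at 0.08 under the endothelial scaling.

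The neighbouring epithelial lists had negative medians too, closer to 0 than that of the 10 genes. Among ciliated cell genes, 17 of 20 were in the tables and tested, 16 were lower and none higher at an edgeR adjusted p below 0.01, and 6 passed the fold threshold, with a median of -0.89. Foxj1, the master factor of motile cilia, fell from 1424 to 767 normalized counts (-0.90), and Ccdc39 (-0.70), Sntn (-1.20) and Tppp3 (-0.40), the gene of this list with the most counts, fell too. Mcidas, named after its values were seen, went from 12 and 7 counts up to 19 and 20 (log2 change 1.15, edgeR adjusted p = 0.011), short of the threshold. The endothelial scaling left 15 ciliated genes lower and 1, Mcidas, higher at an edgeR adjusted p below 0.01.
Among alveolar type 2 genes all 12 were lower by the same rule and none passed the fold threshold, with a median of -0.48. Sftpc, the type 2 cell surfactant protein, fell from 171015 to 111027 normalized counts (-0.62), and Sftpa1 (-0.71) and Sftpb (-0.65) fell with it. Among alveolar type 1 genes 9 of 11 were lower and 2 higher, with a median of -0.35. Clic5 (-0.35), Ager (-0.38), Hopx (-0.67) and Rtkn2 (-0.99) fell. The 2 that rose, named after their values were seen, were Pdpn (0.39, edgeR adjusted p = 6.3e-17), which encodes podoplanin, and Igfbp2 (0.53, edgeR adjusted p = 7.6e-23). Under the endothelial scaling 6 type 1 genes were lower and 3 higher, with Pdpn at 0.67 and Igfbp2 at 0.81.
Of 12 pan-epithelial genes 7 were lower and 3 higher (median -0.32), but under the endothelial scaling 4 were lower and 4 higher. Epcam went from 1105 to 791 normalized counts (-0.48) and Esrp2 fell (-0.64), while the keratins Krt7 (0.18) and Krt19 (0.24) rose. Cdh1 was at -0.25, and at 0.03 under the endothelial scaling. Under that scaling the medians were -0.61 for ciliated, -0.20 for type 2, -0.08 for type 1 and -0.05 for pan-epithelial genes, beside -0.74 for the 10 airway secretory genes. That scaling turned the sign of 5 enzymes, of 2 transcription factors, of 2 pan-epithelial genes and of 1 gene each among the secreted, club cell, type 1 and type 2 genes. Whether the lists differed from one another was not tested.

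**Figure D4:**
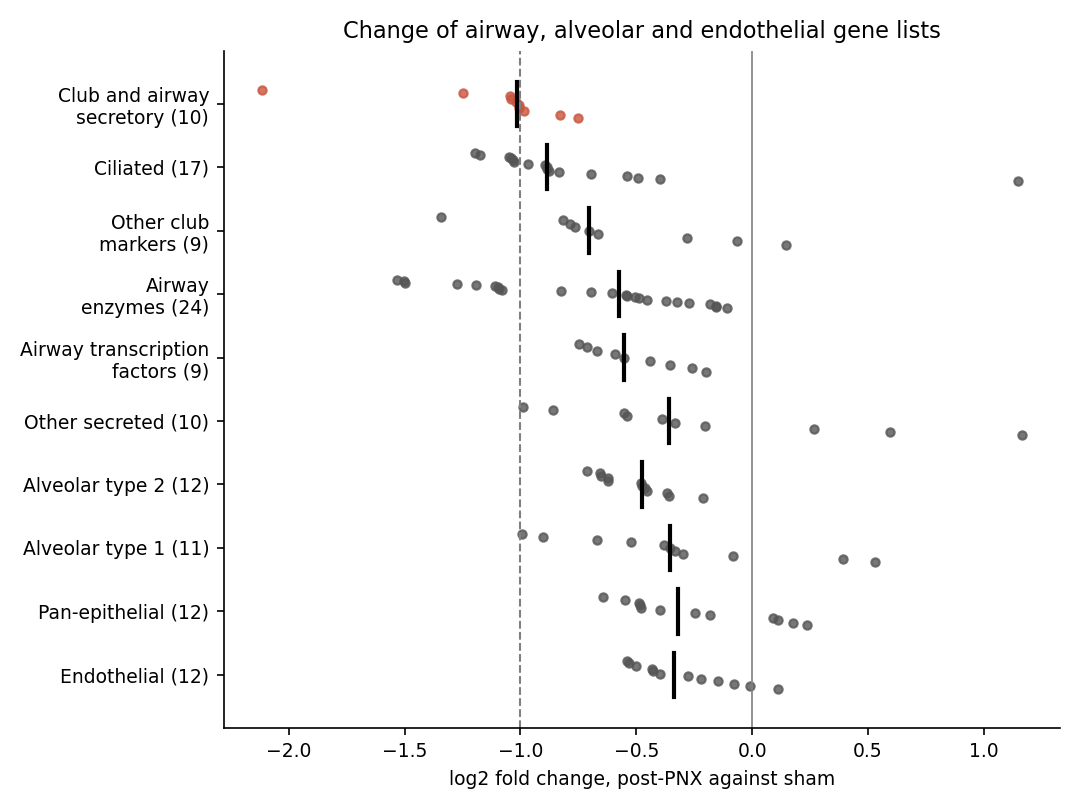
Log2 fold change, post-PNX against sham (horizontal axis), of each gene tested (points) in 10 gene lists (rows, number tested in parentheses), with black bars for the medians. The 10 airway secretory genes (median -1.01) and the ciliated genes (-0.89) have the lowest medians of these lists, and the alveolar type 2 (-0.48), type 1 (-0.35), pan-epithelial (-0.32) and endothelial (-0.34) genes lie closer to 0.

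Markers of other cell types moved between the same libraries. The 5 mesothelial markers had summed levels of 7212 and 7338 normalized counts in sham and 18956 and 19138 in post-PNX libraries, all 5 being higher at an edgeR adjusted p below 0.01. All 6 macrophage markers in the tables were higher, from sums of 20178 and 19888 to 46746 and 46951, and 4 of the 6 fibroblast markers, from 43226 and 43757 to 135306 and 136500. All 5 B cell markers were lower, from 6197 and 6161 to 3571 and 3421, and all 5 T cell markers in the tables, from 2943 and 2955 to 2225 and 2217. Of the 5 pan-leukocyte markers 3 were higher and 1 lower (54175 and 54218 against 58423 and 59184), and Ptprc, which encodes CD45, was at -0.00 (edgeR adjusted p = 0.905). Under the endothelial scaling all 5 were higher and none lower, with Ptprc at 0.27 (edgeR adjusted p = 4.7e-13). Of the 12 endothelial markers 10 were lower and 1 higher, with a median of -0.34, and Cdh5, which encodes VE-cadherin, was at -0.22, and at 0.05 under the endothelial scaling. That scaling turned the sign of 4 endothelial, 2 pan-leukocyte, 1 T cell and 1 fibroblast markers. No marker of these lists that was in the tables had 0 counts in all libraries. The part of these shifts in the fall of the airway secretory genes was not tested.

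The genes whose levels over the 4 libraries most resembled those of Scgb1a1, by the Euclidean distance of centred log2 normalized counts over 13401 other genes whose mean reached 100, were Errfi1, Cbx7, Inmt, Fam216b and Ms4a4d. Their log2 fold changes lay between -1.06 and -1.03 and their distances between 0.012 and 0.029. The nearest of the 10 airway genes was Cbr2, in place 22, then Reg3g in place 27 and Bpifb1 in place 35, while Bpifa1 was in place 7262. With 4 libraries such a ranking follows the size of the fall and the scatter within each group.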

How the data were processed

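The authors deposited, for each of the 4 libraries, whole-number counts of reads on 33068 RefSeq transcripts of mm10, without normalization, with FPKM and TPM beside them. The submitters' processing notes name STAR, and the paper's methods name a stranded mRNA kit with paired ends. The counting program is not given in the sources used here. Near-identical transcripts were sought with BLAST in the annotation. The values show reads counted for each transcript of a gene that they share, so the transcript with the most counts represented each gene, and the deposited TPM served for levels per length. The deposited FPKM values served to derive transcript lengths. The libraries of a group differed by more than counting noise, with mean chi-squares per gene of 1.74 (sham) and 1.51 (post-PNX).

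Counts were compared in R 4.3.3 with edgeR 4.0.16 (filterByExpr, 16208 genes, TMM factors between 0.998 and 1.003, quasi-likelihood F test without covariates, Benjamini-Hochberg adjustment over all genes tested). As in the paper's methods, a call required a change of more than 2-fold at an adjusted p below 0.01. Standard errors are the log2 fold change divided by the square root of F. Normalized counts are scaled to the mean library, with a prior count of 0.125 on the log2 scale. Wilson intervals cover counting error only, and 3 counts, the floor, were 0.0589 to 0.0725 CPM. On simulated counts for 16092 genes the test recovered 200 of 200 changed genes with 0 false calls. The planted changes all lay well past the fold threshold and the spread was fixed, so calls near 2-fold were not tested by it.

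The members and all gene lists were chosen with earlier results of these data known. Named genes are the 10, from each airway, alveolar and pan-epithelial list the 3 highest in sham and the gene with the largest change above a mean of 100, Pecam1, Cdh5, Ptprc, Epcam, the 5 nearest to Scgb1a1 and, in the closing observations, genes of the basal and neuroendocrine lists, of which 1 is not reported here. Listed genes at 0 counts are named too. Others are said to be named after their values were seen. The alternatives tried were scaling by DESeq2 (1.42.0) size factors, by library size or by endothelial markers, filtering at a mean of 50 counts or not at all, DESeq2's Wald test, glmTreat, a threshold of 0.05, a replicate block, transcripts summed per gene, and leaving out each library.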

Additional observations from a re-analysis of the deposited data

How the results depend on the processing

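All 10 genes were lower with an adjusted p under 0.01 (edgeR's or DESeq2's test) under every alternative listed except glmTreat, which tests another question. The number past both thresholds was 7 under DESeq2's size factors, library size alone, no filter, a mean of at least 50 counts, the DESeq2 Wald test, summed transcripts and an adjusted p under 0.05. It was 1 with endothelial scaling, where the median was -0.74, and 2 with glmTreat. With each library left out in turn it lay between 5 and 7 and the median between -1.02 and -1.01. Scgb3a1 and Foxa1 dropped below the fold threshold without sham replicate 1, where Bpifb1 passed it, Scgb3a1 and Cbr2 without post-PNX replicate 1, and Reg3g without post-PNX replicate 2. The share of counts on the 10 genes, with counts summed over transcripts, was 0.307% and 0.308% in sham and 0.151% and 0.147% in post-PNX libraries, since that sum counts reads of genes with several transcripts more than once. With the replicate number as a block 7 genes passed both thresholds, 10 had an adjusted p under 0.01 and the median was -1.01. The numbers do not mark shared mice, and the deviations of same-numbered libraries correlated at 0.030 across genes, so the libraries were not treated as paired. With 2 libraries per group, each a pool, differences near the fold threshold cannot be resolved.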

Other observations

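Genes listed for rarer cells of the airway lining, basal and neuroendocrine cells, showed another pattern than the secretory genes. Which cells carried this RNA was not tested. Among basal cell genes, Krt5 fell from 27 and 22 counts in sham to 4 and 4 in post-PNX libraries (log2 change -2.46 ± 0.47 SE, edgeR adjusted p = 7.3e-06). Krt15 fell from 64 and 63 to 20 and 17 counts (log2 change -1.65, edgeR adjusted p = 1.1e-07). Krt14, a keratin that other stratified and simple epithelia can also make, rose from 18 and 28 to 264 and 233 counts (log2 change 3.55, edgeR adjusted p = 1.2e-26). Trp63, the defining factor of basal cells, had 19 and 26 against 23 and 19 counts, with overlapping groups. The basal list thus moved in both directions. Krt5, Krt15 and Trp63 had counts far below those of the secretory genes. Krt14 did so in sham libraries only, and in post-PNX libraries it lay above Reg3g (214 and 170 counts).

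Among neuroendocrine genes, Calca, which encodes calcitonin and the peptide CGRP, rose from 21 and 22 to 523 and 445 counts (log2 change 4.61 ± 0.15 SE, edgeR adjusted p = 8.9e-37). Chga, which encodes the granule protein chromogranin A, had 0 and 2 counts in sham and 76 and 72 in post-PNX libraries. Resp18 had at most 6 counts in any library and was not tested.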
